A study of Drosophila melanogaster with 8 samples.

Results

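The baseline transcriptome of Kc cells was read from the 3 arrays of cells that took up double-stranded RNA against GFP, out of 8 arrays in the series. Kc is an established Drosophila melanogaster line of female embryonic origin, and flies have no GFP gene, so this RNA interference (RNAi) carries the procedure without a fly target. The other groups, 3 arrays after Sxl RNAi and 2 after combined Sxl and Msl2 RNAi, were not used. Total RNA was hybridised as biotinylated cRNA to a 3′ expression array, and the deposited values are log2 summaries from robust multi-array averaging (RMA), called levels here. A gene was taken as the probe set that carried its symbol alone, or the one of highest mean where it had several, and its mean over the 3 GFP RNAi arrays was its level. This gave 11982 genes, 1873 of them on the X chromosome and 10018 on autosomes. Levels of different probe sets also reflect how well each binds its RNA, so an order of genes is an order of array signal and not of RNA copies per cell. Where 3 values follow a gene they are those of GFP RNAi replicates 1, 2 and 3 in that order. The labels do not say that these came from separate cultures, so their spread may be technical.

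Fly blood cells, the hemocytes, comprise plasmatocytes, crystal cells and lamellocytes. Plasmatocytes engulf debris and lay down basement membrane, crystal cells carry prophenoloxidases for melanisation, and lamellocytes encapsulate parasites. Hemocyte specification rests on the GATA factor Serpent and its partner U-shaped, and hemocyte survival and migration on the receptor Pvr. In female cells the RNA-binding protein Sex-lethal directs splicing of transformer and blocks translation of msl-2, so that the dosage compensation complex, which doubles output of the single male X, does not assemble.

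GFP RNAi replicate 2 stood apart from replicates 1 and 3. Across all genes the correlation was 0.987 for replicates 1 and 2, 0.987 for replicates 2 and 3 and 0.995 for replicates 1 and 3, given as a description over genes that share each hybridisation. Among genes above the floor limit defined below, 73 differed by at least 2 log2 units for replicates 1 and 2, 67 for replicates 2 and 3, and 1 for replicates 1 and 3. Of the 89 such genes with a range of at least 2 over the 3 arrays, replicate 2 was the array farthest from the median for 83 (93.3%), the highest for 30 and the lowest for 53. The median standard deviation (SD) over the 3 arrays was 0.17 for genes above the limit and 0.093 for those at or below it, so most levels were tight, and the exceptions are given by array.

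The 10 widest ranges above the limit belonged to genes in which replicate 2 was an extreme. Prip, an aquaporin, had levels of 10.46, 4.56 and 11.44. Pxt, a peroxidase with a role in prostaglandin synthesis, had levels of 9.66, 4.44 and 9.0. CG5399 ran the other way, with 5.83, 10.37 and 8.18. Both chains of collagen IV, the network protein of basement membranes, were low on replicate 2. Col4a1 had levels of 9.92, 5.70 and 9.83, and vkg had levels of 9.94, 5.78 and 9.82. The EGF receptor antagonist aos had levels of 8.25, 4.66 and 8.59. CG10859, Rph, ringer and Sln completed the set with replicate 2 lowest at 4.69 to 4.80, against 8.73 to 9.84 on the other arrays. What sets replicate 2 apart was not tested.

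Levels fell into a dim and a bright population. Of the 11982 genes, 2618 lay between 3 and 4 and 3147 between 4 and 5, the counts thinned to 699 and 625 in the next 2 units, and a second maximum of 1517 genes lay between 8 and 9. Beyond it 310 genes lay between 11 and 12 and 21 between 14 and 15. The files hold no detection calls, so the position of the dim population was set from 113 odorant and gustatory receptor genes, which sense organs express. Their median was 3.92, and the 95th percentile of their means, 4.48, was taken as the floor limit. By this limit 7064 of 11982 genes (59.0%) were above the floor. With each array's own limit of 4.60, 4.53 and 4.46 the counts were 6851, 6951 and 7083, and 7094 genes were above it without replicate 2.

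Of the receptor genes themselves 6 lay above the limit that they defined, led by Gr94a with levels of 7.72, 6.32 and 7.59 and Gr61a with 5.98, 6.83 and 6.36. The 7 Y-linked genes measured, among them the male fertility dyneins kl-2, kl-3 and kl-5, had means of 3.38 to 4.14 and 0 of 7 lay above the limit, in a line of female origin. A level at the floor did not establish that a gene was silent. Pdi, a protein disulphide isomerase, had levels of 3.63, 3.67 and 3.58, and alphaTub84D, an alpha tubulin, had 3.87, 3.89 and 3.88, both in the dim population although such proteins are used by every cell. RpS29, a small ribosomal subunit gene, averaged 14.42 and 14.16 on different probe sets and 3.49 on another. Of 744 genes with several probe sets whose highest was above the limit, 410 (55.1%) had another at or below it.

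**Figure D1:**
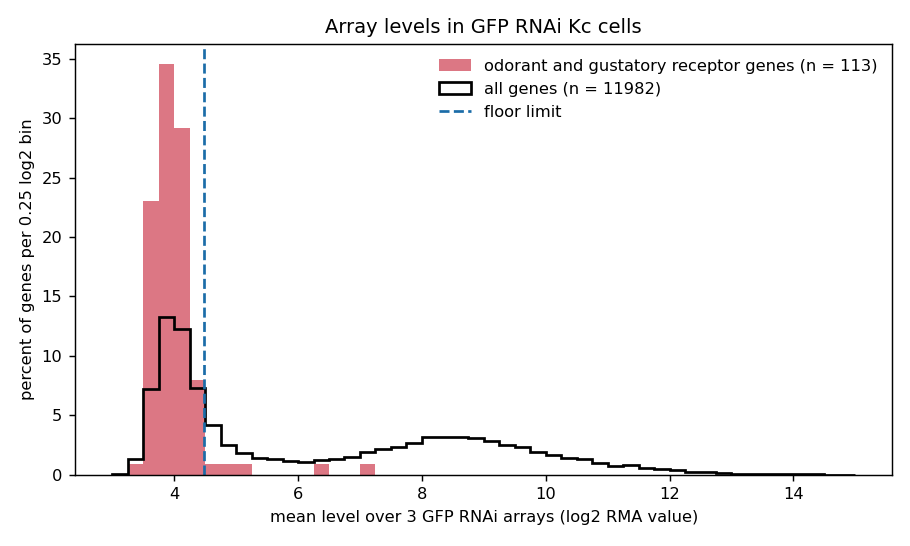
Distribution of mean levels over the 3 GFP RNAi arrays. The horizontal axis is the log2 RMA value and the vertical axis the percent of genes in each bin, for all 11982 genes (black outline) and for 113 odorant and gustatory receptor genes (filled); the dashed line is the floor limit of 4.48, which 59.0% of all genes and 6 of the receptor genes exceeded.

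Genes for the ribosome led among the probe sets that name a single gene. Of the 25 genes of highest level, 22 encoded cytosolic ribosomal proteins, and 29 did so of the 50 brightest. RpS26, of the small subunit, led with levels of 14.59, 14.56 and 14.60, and RpL41, the shortest protein of the large subunit, followed with 14.56, 14.49 and 14.53. RpL15, RpS18 and RpS29 came next at means of 14.49, 14.48 and 14.42. The lowest array of RpS26 was above the highest of RpL41, while from RpL41 to RpS29 the arrays of neighbours overlapped, so their order is not resolved. The remainder of the leading ribosomal set, from RpS28b through RpLP1, RpL36A, RpS27A, RpS7, RpS15, RpL29, RpL23, RpL28, RpLP2, RpL37-1, RpS21, RpS12, RpL32, RpS30 and RpS20 to RpLP0, lay between 14.39 and 13.90. Of 93 genes listed for these proteins 41 were measured by a probe set with a single symbol, so the ribosome's share of the brightest genes covers those 41 only. Probe sets with no symbol, some as bright, are not ranked here.

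Among the 25 brightest were 3 genes outside the ribosomal list. Hsc70-4, the constitutive cytosolic chaperone, had levels of 14.07, 14.02 and 13.97. Rack1, a scaffold protein that sits on the small ribosomal subunit, had levels of 13.79, 14.03 and 13.74. CG5953 had levels of 14.25, 14.21 and 14.28 on the probe set that stood for it, but averaged 10.08 on its other one. The membership of this set was stable between arrays, with 22 of the 25 in the top 25 of all 3 arrays, and replicate 2 shared 24 of its top 25 with the order by mean.

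**Figure D2:**
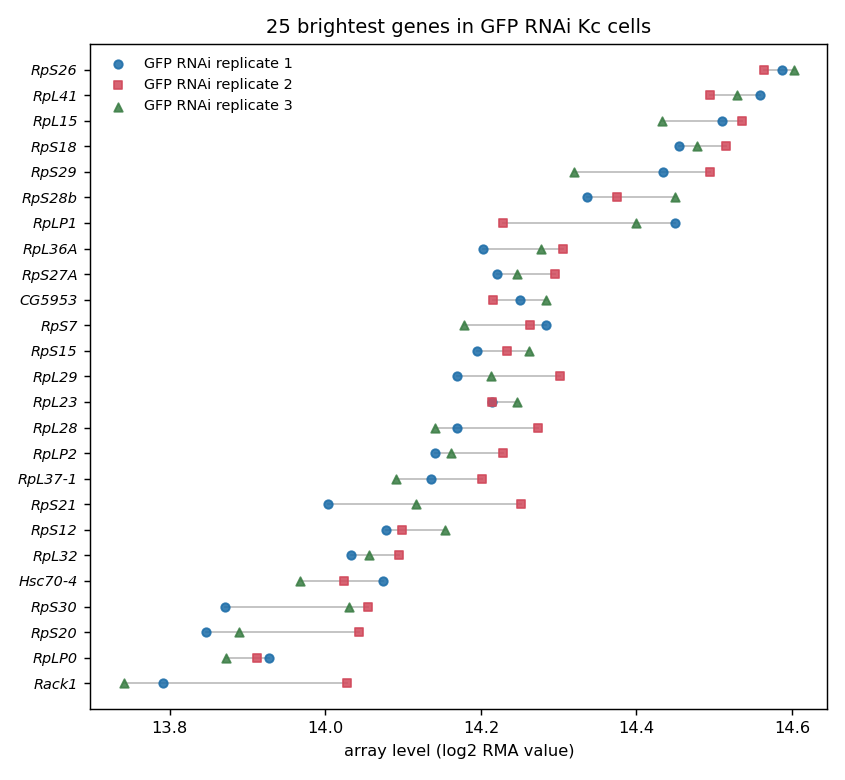
The 25 genes of highest mean level, brightest at the top. Points are the log2 RMA values of the 3 GFP RNAi arrays and grey lines join the lowest and highest; RpS26 leads at 14.58 and Rack1 closes the set at 13.85, with the axis starting above the floor.

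Not every ribosomal protein gene was bright. Of the 41 measured, 39 were above the limit with a list median of 13.93, beside 59.0% of all genes and a median of 5.26. The dimmest members were, by their names, second copies of other ribosomal genes. RpL10Aa averaged 3.96 where RpL10Ab averaged 13.83, RpS28-like averaged 4.13 and RpS28a 5.86 where RpS28b averaged 14.39, and RpL37-2 averaged 6.19 where RpL37-1 averaged 14.14. RpL22-like lay at 4.51, just above the limit. Other members with such names were bright, RpL7-like at 11.46, RpL24-like at 11.17 and RpLP0-like at 9.42. A name of this form does not show that a protein is part of the ribosome. RpS19b, whose levels were 6.41, 7.91 and 7.06, was higher on replicate 2 than on the other arrays.

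The general machinery of growth was above the floor almost without exception. All 19 translation factors measured were above the limit, from the helicase eIF4A at 13.82 ± 0.01 (SD, n = 3) and eEF1gamma at 13.36 to the paralogue eEF1alpha2 at 4.96. All 26 proteasome subunits lay between 10.26 (Rpn6) and 12.36 (Prosbeta3). All 69 mitochondrial ribosomal proteins lay between 7.19 (mRpL45) and 10.66 (mRpL30), a lower and tighter band than that of the cytosolic ones. All 31 cell cycle and replication genes were above the limit. They were led by the sliding clamp PCNA with levels of 12.48, 12.35 and 12.70, the ribonucleotide reductase subunit RnrL at 11.52 and the anaphase activator fzy at 10.84, while twe, a Cdc25 phosphatase of meiosis, was the dimmest at 5.17. Over all housekeeping lists 288 of 307 distinct genes (93.8%) were above the limit.

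Genes of energy metabolism were mostly bright. Of 76 genes of the ATP synthase and respiratory chain 63 were above the limit, led by ATPsynF at 12.68, COX4 at 12.59 and the ATP synthase alpha subunit blw at 12.46. Of 19 members named as "like" copies of other subunits 7 were above the limit, up to ATPsynepsilonL at 7.90 and COX4L at 7.12, and 12 were not, such as COX5BL at 3.57 and UQCR-11L at 3.71. Of the other 57 members 1 was not above it, ND-B8 at 3.87. In glycolysis 9 of 10 genes were above the limit, with Eno at 12.41, Tpi at 12.38 and Gapdh1 at 12.12. Hexokinase was represented by Hex-A, with levels of 10.24, 9.01 and 9.25, while Hex-C averaged 4.30. Of 12 cytoskeletal genes 10 were above the limit, the tubulin betaTub56D at 13.50 and the cofilin tsr at 13.35 foremost, and of 23 chaperones 22, with Fkbp12 at 13.65, Cyp1 at 13.53 and the mitochondrial chaperonin Hsp60A at 13.16 behind Hsc70-4. Pdi was the exception.

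**Figure D3:**
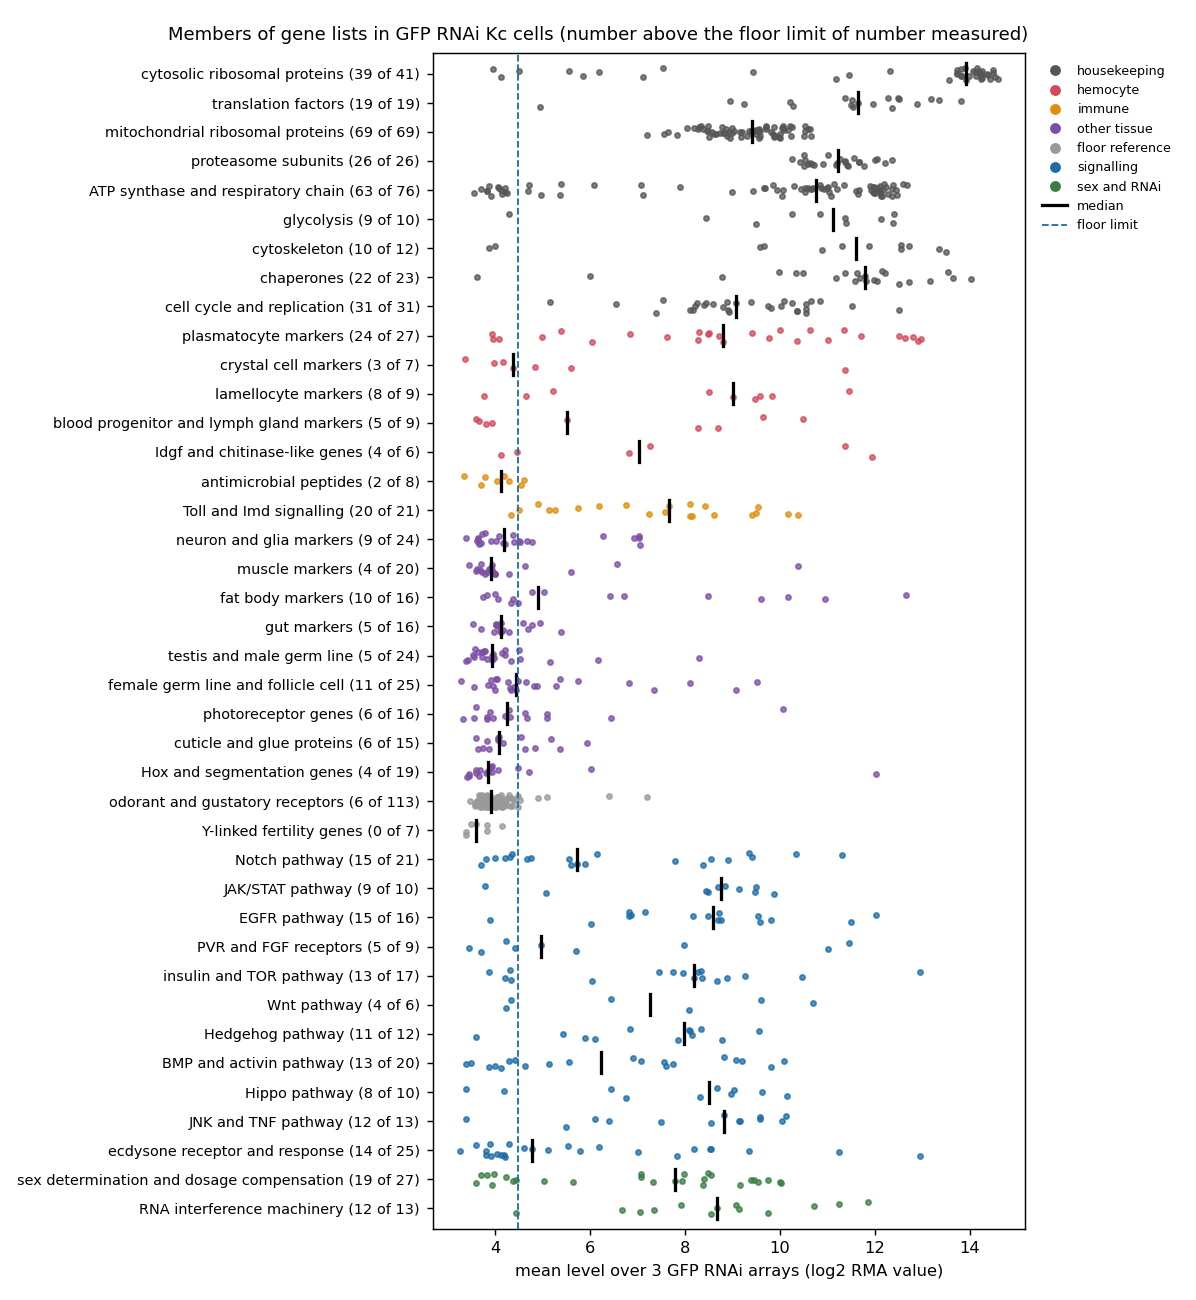
Mean levels of the members of 40 gene lists. Each point is a gene, the black bar the list median and the dashed line the floor limit of 4.48. The numbers in brackets are the members above the limit out of those measured. Housekeeping lists lie to the right, and lists for muscle, gut and testis crowd at the floor. The odorant and gustatory receptors lie there by construction, as they set the limit.

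Markers of blood cells were more often above the floor than those of other tissues. Over the hemocyte lists 44 of 58 distinct genes (75.9%) were above the limit and 32 (55.2%) had a mean over 8, while over the lists for other tissues 60 of 175 (34.3%) were above the limit and 12 (6.86%) had a mean over 8, beside 59.0% and 31.8% of all genes. The share above the limit was not particular to blood cells. It was 75.9% over the immune lists, 74.7% over the signalling lists and 77.5% over the sex and RNAi lists. A mean over 8 was held by 34.5%, 43.7% and 47.5% of their genes. Among regulators of the lineage srp and ush were bright, while others lay at the floor. srp, which encodes Serpent, had levels of 10.50, 10.86 and 10.55, and its cofactor ush had levels of 9.31, 9.85 and 10.12. The glial and plasmatocyte factors gcm and gcm2 lay at the floor, at 4.09 and 3.94.

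Of 27 plasmatocyte genes 24 were above the limit, with and without replicate 2, and 21 with the limit at the 99th percentile. The 3 laminin chains of basement membrane were uniformly bright, LanA with levels of 12.90 to 13.04, LanB2 with 12.94, 12.90 and 12.85, and LanB1 with 12.65, 12.82 and 12.41. The ferritin subunits Fer2LCH and Fer1HCH averaged 12.80 and 12.52. Hml, the clotting protein hemolectin, had levels of 11.03, 11.85 and 11.14. Further matrix genes were high too, Tig (tiggrin) at 9.99 and Ppn (papilin) at 9.41. The scavenger receptor gene Sr-CI lay at the floor with 4.11, 3.95 and 3.81.

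Several plasmatocyte surface and matrix genes were those in which replicate 2 differed. He (hemese) had levels of 8.04, 10.56 and 7.78, Pxn (peroxidasin) had 5.71, 8.45 and 6.39, NimB5 had 5.19, 8.03 and 4.92, and NimC1, a phagocytosis receptor, had 4.74, 6.57 and 4.84. These were high on replicate 2. The phagocytic receptor eater, with 9.37, 6.74 and 8.79, was low there, as were the collagen chains and Lac, with 10.87, 9.39 and 10.81. For He, Pxn, NimB5, eater and both collagen chains the value of replicate 2 lay more than 2 units from both other arrays. Plasmatocyte markers thus moved both ways between these arrays, and the list median was 9.57, 9.39 and 9.82.

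Crystal cell and lamellocyte genes gave a mixed reading. The crystal cell regulator lz was at the floor with 3.31, 3.35 and 3.47. PPO1 averaged 4.37, below the limit, while PPO2 had levels of 5.68, 5.61 and 5.52 and PPO3 averaged 4.85. Of the crystal cell genes fok alone was bright, at 11.39, 11.90 and 10.79. In that list 3 of 7 genes (42.9%) were above the limit, beside 59.0% of all genes, and 1 with the limit at the 99th percentile. Of 9 lamellocyte genes 8 were above the main limit and 6 above that at the 99th percentile, but the bright ones also serve other cells. These were the growth factor Pvf2 at 11.45, the integrin mys at 9.84, the kinase msn at 9.59 and the trehalase Treh at 9.48. atilla, a surface marker of lamellocytes, averaged 4.65 and the integrin ItgaPS4 3.76. Among blood progenitor genes Tep4, a thioester protein, had levels of 10.54, 10.22 and 10.71 and zfh1 9.41, 9.93 and 9.56, whereas kn (collier) averaged 3.94, pnr 3.82, Antp 3.67 and hh 3.61. The Polycomb gene E(z), in the same list at 8.28, is not particular to blood.

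Secreted chitinase-like growth factors were split by member. Idgf6 had levels of 12.12, 11.77 and 11.92 and Idgf3 had 11.50, 11.34 and 11.27. Idgf2 averaged 7.26 and Idgf1, with 5.98, 7.60 and 6.90, was less even. Idgf4 averaged 4.45, just below the limit, and Idgf5 4.13.

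**Figure D4:**
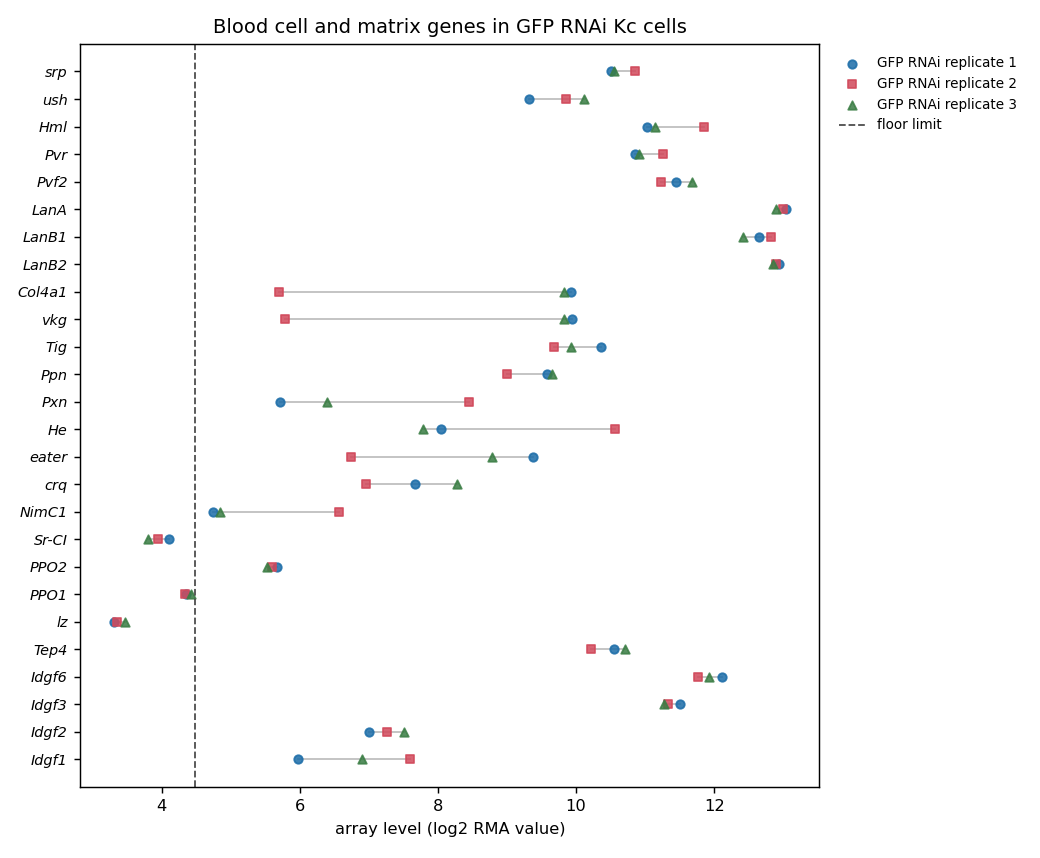
Levels of blood cell, matrix and growth factor genes on the 3 GFP RNAi arrays. The horizontal axis is the log2 RMA value and the dashed line the floor limit of 4.48; the laminins, srp and Idgf6 are tight and bright, Sr-CI, PPO1 and lz lie at the floor, and replicate 2 (squares) is low for Col4a1, vkg and eater and high for He, Pxn and NimC1.

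Genes of immune signalling were mostly above the floor and those of its effector peptides near it. Among 8 antimicrobial peptide genes measured BomS2 was lowest at 3.35, and 0 lay above the limit at the 99th percentile. By the main limit 2 (25%) were above it, CecB at 4.62 and Def at 4.55, beside 59.0% of all genes. Of 21 members of the Toll and Imd pathways, which activate NF-kappaB factors in response to microbes, 20 were above it. The cytoplasmic inhibitor cact had levels of 10.29, 10.48 and 10.35, the peptidoglycan sensor PGRP-LE averaged 10.18, the Imd factor Rel 9.54, the ubiquitin ligase Diap2 9.50 and the kinase subunit key 9.41. The Toll ligand spz averaged 8.43 and its receptor Tl 5.75, with 4.89 on replicate 1 against 6.18 on the others and a mean of 3.75 on its second probe set. The Toll factors dl and Dif averaged 7.58 and 5.14.

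Differentiation genes of other tissues were mostly at the floor. For muscle 4 of 20 genes (20%) were above the limit, beside 59.0% of all genes. They were flr at 10.37, TpnC41C at 6.56, Prm at 5.60 and Mp20 at 4.63. flr encodes an actin disassembly factor used beyond muscle, and the dimmest members were bt at 3.45, up at 3.60 and Mlc2 at 3.62. For gut 5 of 16 were above it, none over 5.39 (epsilonTry). For testis and male germ line 5 of 24 were above it, 3 without replicate 2. They included mia, a cofactor gene of meiotic transcription, with levels of 8.15, 8.23 and 8.49 and topi at 6.18, while djl and dj, of the sperm tail, averaged 3.39 and 3.43. Cuticle and glue proteins reached 5.93 at most (Ccp84Ae), with 6 of 15 above the limit. Many of these members lay close to the limit. With the limit at the 99th percentile of the receptor genes the counts were 2 for muscle, 0 for gut, 1 for testis, 0 for cuticle and glue, 5 for neuron and glia, 5 for female germ line and follicle cell, 2 for photoreceptor and 1 for Hox and segmentation genes.

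Neuronal and glial genes gave a small group between the floor and the bright population. Of 24 genes 9 (37.5%) were above the limit, beside 59.0% of all genes, and 10 without replicate 2. The active zone protein gene brp had levels of 7.27, 7.09 and 6.80, the vesicle priming gene unc-13 had 7.17, 6.57 and 7.39, and the neuronal RNA-binding protein gene elav had 7.39, 6.62 and 7.10. cpx, for complexin, averaged 6.93 and moody, a glial receptor of the blood-brain barrier, 6.28. The enzymes and transporters of neurotransmitters lay at the floor, ple at 3.39, VAChT at 3.62 and Gad1 at 3.64, as did the glial regulator repo at 3.73.

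Of 16 fat body genes 10 (62.5%) were above the limit, near the 59.0% of all genes. Among them were several of lipid synthesis and storage. The fatty acid synthase FASN1 had levels of 12.49, 12.68 and 12.78, Desat1 averaged 10.94, the lipase bmm 10.17 and the lipid droplet protein Lsd-2 9.61. A second fatty acid synthase, FASN2, lay at the floor at 4.07. Of the secreted products Col4a1, listed here as well as for plasmatocytes, averaged 8.48, whereas the lipoprotein apolpp averaged 3.74, the yolk proteins Yp1, Yp2 and Yp3 averaged 3.84, 5.03 and 4.38 and the larval storage protein Lsp2 4.49. Lsd-1 was low on replicate 2, with 6.99, 5.47 and 7.73.

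Among germ line and eye genes single members were bright. In the female germ line and follicle cell list 11 of 25 (44%) were above the limit, beside 59.0% of all genes, and 13 without replicate 2. bgcn, a partner of bam in germ cell differentiation, had levels of 9.63, 9.67 and 9.26. aub, which binds piRNAs, had levels of 9.32, 8.20 and 9.68 and AGO3, its partner, averaged 7.35, while piwi averaged 4.45. bam itself had 4.61, 7.79 and 4.85 and so was bright on replicate 2 alone. The germ cell genes vas, osk, orb and otu lay at the floor at 3.96, 4.0, 3.56 and 3.28. Of 16 photoreceptor and eye genes 6 were above the limit, and the Pax6 gene toy had levels of 10.08, 10.12 and 9.99, with other probe sets at 8.96 and 3.94. Its paralogue ey averaged 4.21, and so, eya and gl, which act with it in eye development, averaged 3.88, 3.55 and 3.33.

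Patterning genes were nearly all dim. Of 19 Hox and segmentation genes 4 (21.1%) were above the limit, beside 59.0% of all genes. hry (hairy), a transcriptional repressor, had levels of 12.01, 11.84 and 12.21, Dfd, a Hox gene, had 5.66, 6.13 and 6.31, and gt and eve averaged 4.71 and 4.49. Antp, Scr and pb, the other Hox genes measured, averaged 3.67, 3.59 and 3.84, and hb was lowest at 3.42.

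Signalling components were above the floor more often than the genes at large, ligands less often than receptors by count. Of 158 distinct genes of the pathway lists 118 (74.7%) were above the limit, beside 59.0% of all genes. When the members were sorted by role, after their values were known, 13 of 26 ligands (50%) and 13 of 18 receptors (72.2%) were above it, with medians of 4.64 and 7.67. The values below are ordered by pathway. They give array levels and carry no measure of pathway activity.

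In the list of PVR and FGF receptors and ligands 5 of 9 genes (55.6%) were above the limit, near the 59.0% of all genes. With the limit at the 99th percentile 3 were above it. The PVR pathway had both partners bright. The receptor Pvr had levels of 10.86, 11.26 and 10.91 and its ligand Pvf2 had 11.44, 11.23 and 11.68, while Pvf1 and Pvf3 averaged 5.70 and 4.96. The FGF receptors btl and htl lay at 4.43 and 3.46, and their ligands pyr and ths at 3.71 and 4.23, whereas the ligand bnl had levels of 8.5, 7.33 and 8.13. In the EGFR pathway 15 of 16 members were above the limit and the exception was the receptor itself. Egfr had levels of 4.12, 3.78 and 3.77, while the ligand spi lay between 11.98 and 12.09 on the 3 arrays. The ligands Krn and grk both averaged 6.83, the feedback inhibitor sty had levels of 11.76, 11.57 and 11.16, and the scaffold cnk averaged 9.81.

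In JAK/STAT signalling the receptor and the transcription factor were bright and the ligands were not. The receptor dome had levels of 8.74, 8.74 and 8.60 and Stat92E had 9.70, 9.96 and 9.97. The ligand upd1 averaged 3.79 and upd2 5.08. et, a short receptor related to dome, was less even, with 9.11, 7.55 and 8.66. In insulin signalling the receptor InR had levels of 8.44, 8.33 and 8.22, and 0 of 4 insulin-like peptides measured were above the limit, from Ilp7 at 3.87 to Ilp8 at 4.33. ImpL2, a secreted protein that binds insulin-like peptides, was the brightest of that list, with 13.17, 12.47 and 13.21, and the kinase S6k averaged 10.47.

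For Hedgehog and BMP signalling the receptors were mostly above the floor and the best known ligands at it. hh averaged 3.61, while smo, the signal transducer, had levels of 8.27, 7.76 and 8.31, the receptor ptc averaged 5.89 and the co-receptors ihog and boi 7.85 and 5.44. The kinesin-like cos led the list at 9.56. The transcription factor ci had levels of 8.39, 5.25 and 6.87, and dlp, a glypican, had 8.72, 6.85 and 8.70, both lowest on replicate 2. Of the BMP and activin ligands dpp averaged 3.50, Actbeta 3.38, myo 3.88 and scw 4.30, but gbb had levels of 10.16, 10.04 and 10.02, daw averaged 7.57 and mav 5.55. The receptors sax, put, babo and tkv averaged 9.80, 9.08, 7.75 and 7.60, and wit was just under the limit at 4.43.

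For the TNF pathway the ligand egr averaged 6.11 and the receptors parted, wgn with levels of 9.69, 9.11 and 9.93 and grnd with 3.38, 3.46 and 3.30. The kinase bsk (JNK) and its target Jra averaged 10.14 and 10.04. In the Hippo pathway 8 of 10 members (80%) were above the limit, beside 59.0% of all genes. Mer at 10.15, sav at 9.62 and hpo at 9.03 were foremost. The cadherin ds and its kinase fj, of the planar polarity input, lay at 3.38 and 4.19. Of 25 Wnt pathway genes listed only 6 were measured. Of these 4 (66.7%) were above the limit, near the 59.0% of all genes. wls and por, which act in Wnt secretion, averaged 10.70 and 6.44, but Wnt6, the ligand measured, averaged 4.22. In the Notch list 15 of 21 genes (71.4%) were above the limit, 8 with the limit at the 99th percentile of the receptor genes. The processing enzymes O-fut1, Psn, kuz and pen-2 averaged 11.31, 10.35, 9.41 and 9.34, the target E(spl)mbeta-HLH had levels of 6.78, 5.45 and 6.2, and E(spl)mdelta-HLH averaged 3.70. Values of the receptor Notch and of its ligands are not analysed here.

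The ecdysone list, for the steroid hormone of moulting, had 14 of 25 genes (56%) above the limit, near the 59.0% of all genes. With the limit at the 99th percentile of the odorant and gustatory receptor genes 8 were above it. EcR, the hormone receptor, had levels of 4.80, 4.90 and 5.63, and its partner usp had 7.21, 6.59 and 7.20. The ecdysone importer Oatp74D averaged 8.19. The early gene br averaged 5.54 on its highest of several probe sets, and Hr3 and Eip93F, of the later response, averaged 3.25 and 3.92.

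The genes of sex determination and dosage compensation had 19 of 27 members (70.4%) above the limit, beside 59.0% of all genes. Sxl had levels of 7.20, 7.01 and 6.99 on its brightest probe set and means of 6.84 and 3.40 on the others. Its paralogue ssx had 9.59, 9.17 and 9.44, and its splicing target tra 9.05, 9.31 and 9.11. msl-2, the subunit that Sex-lethal represses, had levels of 4.32, 4.47 and 4.51, straddling the limit. The remaining protein subunits of the complex were above it. msl-1 averaged 7.33, msl-3 7.78, mle 5.65 and the acetyltransferase mof 8.40. Clamp, the zinc finger protein that binds the complex's target sites, had levels of 9.96, 10.04 and 10.08, Pof, which binds chromosome 4, averaged 7.07, and the kinase JIL-1 lay at the floor at 4.24. The paper reports JIL-1 protein enriched at functional target sites of the complex in female Kc cells too. The floor level of JIL-1 therefore does not show that the gene was silent. dsx, the last gene of the somatic sex hierarchy, was at the floor with 3.58, 3.57 and 3.63.

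Of 13 genes listed as RNA interference machinery 12 (92.3%) were above the limit, beside 59.0% of all genes. The exception was piwi at 4.45. The list is wider than the machinery for the double-stranded RNA used here. Dcr-2, which cuts double-stranded RNA, had levels of 9.81, 9.84 and 9.59, its partner r2d2 averaged 7.06 and loqs 8.68. Rm62 and Tudor-SN were brighter, at 11.85 and 11.24.

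X-linked genes were more often above the floor than autosomal genes, whereas the levels of genes above it were close. On the means 65.9% of 1873 X genes and 58.0% of 10018 autosomal genes were above the limit, a difference of 7.98 percentage points. With each array's own limit the difference was 8.27, 7.32 and 7.91 points (7.83 ± 0.48, SD, n = 3). X had the largest share of the chromosome arms, followed by 2R at 59.8%, 3L at 58.1%, 3R at 57.5%, 2L at 56.8% and chromosome 4, with 65 genes, at 47.7%. Among genes above the limit the median level was 8.10 for 1235 X genes and 8.21 for 5806 autosomal genes, an X minus autosome difference of -0.11. The difference was -0.03, -0.21 and -0.05 on replicates 1, 2 and 3 (-0.10 ± 0.10, SD, n = 3, exact two-sided sign-flip permutation test, p = 0.25), and it was -0.02 without replicate 2. X was lower on 3 of 3 arrays at this limit, though not at every higher limit tried. As 0.25 is the smallest p that 3 arrays allow, this comparison could not reach significance.

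Over all genes, those at the floor included, the X median was 6.23 and the autosomal median 5.14. The difference was 1.08, 0.83 and 1.2 by array (1.04 ± 0.19, SD, n = 3, exact two-sided sign-flip permutation test, p = 0.25, the smallest attainable). Each of these medians falls in the thinly filled range between the dim and the bright population. At the bright end the reading depended on which genes were counted. Of all genes on X 8.44% were among the 1000 brightest, and of all autosomal genes 8.40%. Among genes above the limit, the 90th percentile was 10.40 on X and 10.61 on autosomes, a difference of -0.20, which was -0.10, -0.37 and -0.15 by array. Of genes above the limit 15% on X and 16.3% on autosomes had a mean over 10, with 14.3% on 3L and 13.9% on 3R, both under X, 19.3% on 2L, 18.7% on 2R and 6.45% of the 31 on chromosome 4. The medians of the arms above the limit ran from 8.08 (3R) to 8.41 (4), and that of X, 8.10, lay between those of 3R and 3L (8.15).

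**Figure D5:**
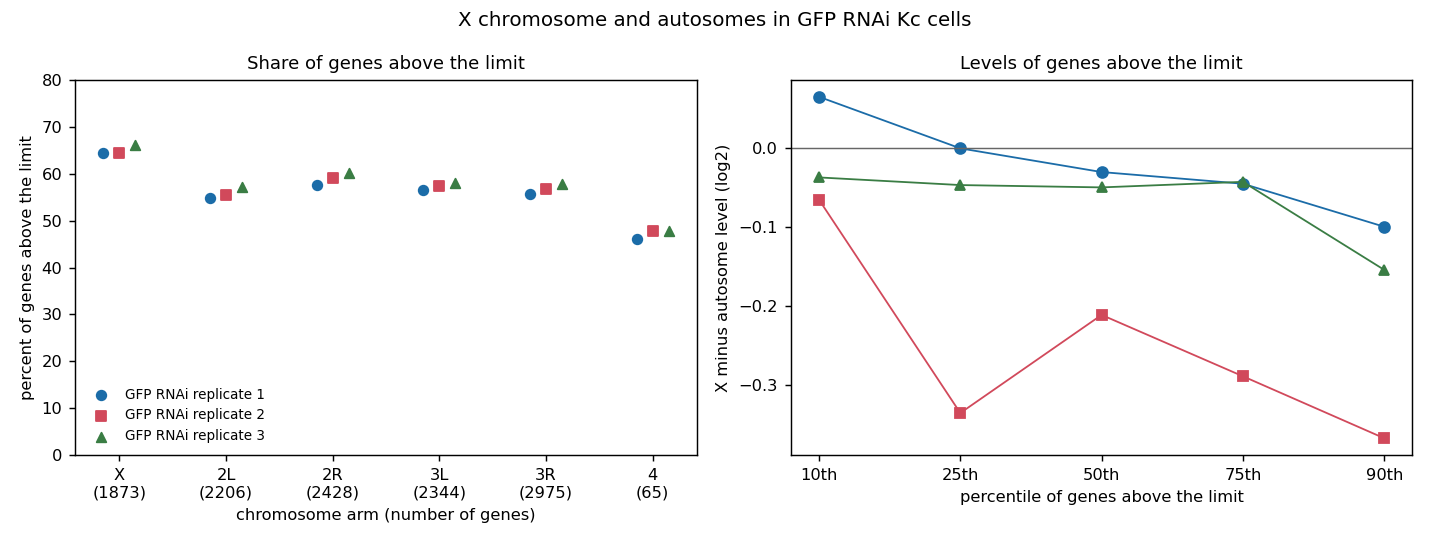
X chromosome and autosomes on the 3 GFP RNAi arrays. Left, the percent of genes above each array's floor limit by chromosome arm, with the number of genes in brackets; X lies at 64.4 to 66.0% and above every other arm. Right, the X minus autosome difference in log2 level at 5 percentiles of genes above the limit, with replicate 2 (squares) the lowest at each.

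Of the 10 brightest X-linked genes 3 encoded ribosomal proteins. RpS28b, RpL37-1 and RpL17 averaged 14.39, 14.14 and 13.80, followed by the cyclophilin Cyp1 at 13.53 and Hsp60A at 13.16. CG15784 had levels of 13.73, 11.15 and 13.79 and was low on replicate 2. The actin-binding genes cib and Moe averaged 12.69 and 12.56, the myosin light chain Mlc-c 12.54, and CG2076 12.65. Within lists with 5 or more X members the X minus autosome difference in median took both signs. It was 0.71 for 11 X and 58 autosomal mitochondrial ribosomal proteins and 0.43 for 10 X and 66 autosomal respiratory genes, but -1.06 for 6 X and 25 autosomal cell cycle genes. The highest value was 0.90, for 5 X and 18 autosomal chaperones. The lowest was -2.93, for 7 X and 20 autosomal genes of sex determination and dosage compensation.

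The limit divides genes that lie close together. Just above it among the listed genes were Lsp2 (4.49), eve (4.49), Rdl (4.50), PGRP-LA (4.50) and fzo (4.50), and just below were Vm34Ca (4.48), Idgf4 (4.45), piwi (4.45), msl-2 (4.43) and wit (4.43). For all of these genes the arrays lay on both sides of 4.48, as for wit, with 4.19, 5.05 and 4.05, and PGRP-LA, with 4.14, 4.71 and 4.66.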

How the data were processed

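Total RNA of Kc cells was hybridised to Affymetrix Drosophila arrays. The authors deposited log2 expression values per probe set, summarised by RMA per the labels; no RMA version or settings are named in the sources used here. The 5 treated arrays were left out. Of 18952 probe sets 183 were controls, 13647 carried 1 gene symbol in the platform annotation, 402 several and 4720 none; the last 2 sets named no gene. Symbols were updated through the Entrez identifier to RefSeq (assembly Release 6 plus ISO1 MT), which matched 11899 of 11982 genes and gave their chromosomes. The floor limit was the 95th percentile of means of the odorant and gustatory receptor genes. No detection calls were used, and precision is limited by having 3 arrays. Lists were counted against the limit beside all genes, with no set test. X minus autosome medians were tested over arrays by exact sign-flip permutation (Python 3.11.15, numpy 2.4.6, pandas 2.3.3, scipy 1.17.1). The floor call and the difference of medians, but not the permutation test, were first run on simulated levels. The simulation left few genes between silent and active levels and took the difference over genes set as active, so it does not check the values reported here.

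Named genes were the 25 brightest, the 10 brightest on X, up to 5 brightest and 3 dimmest of each list, ligands and receptors, the 10 of widest range, Sxl, msl-2, ssx, tra and dsx, and 5 list genes on each side of the limit; any others were picked with their values in view. The genes and lists were chosen with earlier results of these data known. Alternatives were other limits, other choices of probe set, the median over arrays and leaving out each array.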

Additional observations from a re-analysis of the deposited data

Results flagged for a closer look

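Signal was present in probe sets that name no single gene and so entered no comparison. Of 4720 probe sets with no symbol in the platform annotation, 1226 (26.0%) had a mean over the 3 GFP RNAi arrays above the floor limit of 4.48. The 10 brightest of them averaged 14.37 to 14.47, above most of the 25 brightest named genes. Of 402 probe sets with several symbols, 243 (60.4%) were above the limit, near the 59.0% of genes.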

How the results depend on the processing

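No paired analysis was possible because the 3 GFP RNAi arrays form a single group and no treated array was used. The number of genes above the floor was between 5400 (limit at the 99th percentile of the receptor genes) and 7691 (90th percentile), against 7064. The X minus autosome difference in the share above the limit stayed positive but moved by more than the spread between arrays, to 5.51 points at the 99th percentile, 6.38 with the median of all genes as limit, 7.26 with the probe set of lowest mean and 5.41 with a limit of 6, the last chosen after seeing the data. Leaving out each array gave 7.79 to 8.07 points, 7018 to 7109 genes, 29 ribosomal genes among the 50 brightest each time, and an X minus autosome level of genes above the limit of -0.17 to -0.02, the last without replicate 2. That level was negative under all settings run, and no exact p was under 0.25. It was -0.07 at the 99th percentile and -0.05 with the limit of 6. There the exact two-sided sign-flip permutation test over 3 arrays gave p = 0.5, so the arrays did not share a sign. Over all genes the X minus autosome level was 0.83 with the probe set of lowest mean and 1.13 without replicate 2. With the probe set of lowest mean or the mean of probe sets, 25 of the 50 brightest genes were ribosomal. Counts of members above the limit changed by more than 1.5 times for 14 of 40 lists at the 99th percentile, 14 with the limit of 6, 8 with the median of all genes, 3 when a gene had to exceed the limit on all 3 arrays and at most 1 under each other setting. Without replicate 2 that list was testis and male germ line, at 3 instead of 5 genes.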

Other observations

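The share of genes above the floor limit moved with the length of the gene in the RefSeq annotation. With genes ordered by span and cut into 5 groups of equal size, it was 42.8% in the shortest group (up to 1119 bases), then 56.3%, 62.9% and 69.9%, and 63.9% in the longest, which starts at 6683 bases. X genes were above the limit more often than autosomal genes in all 5 groups, with 47.1% against 42.1% in the shortest and 70.8% against 62.5% in the longest. Genes also resembled the one before them on the chromosome. On X 75.9% of genes were above the limit if the left neighbour was and 46.9% if it was not, and on autosomes the shares were 70.3% and 41.0%. No test was made.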
